A study of Mus musculus with 32 samples.

Results

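The genes that make, recycle and use glutathione in the small intestine were followed in mice without one or both of a pair of intestinal fatty acid-binding proteins, Fabp2 and Fabp6. Members were chosen by gene symbol from the probe annotation: every probe set assigned to 1 gene whose symbol starts with *Gsta*, *Gstk*, *Gstm*, *Gsto*, *Gstp*, *Gstt*, *Gstz*, *Mgst* or *Gpx*, together with *Gclc*, *Gclm*, *Gss*, *Gsr*, *Ggct*, *Oplah* and *Glrx*. They came to 55 probe sets of 38 genes, out of 35067 probe sets of 18195 genes that the annotation assigns to a single gene. Of the 38 genes 24 had 1 probe set, 12 had 2, *Ggct* had 3 and *Gstm1* had 4. *Ggt1*, *Gstp2* and *Gsta1* also met the naming rule and had no probe set of their own.

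Glutathione is a tripeptide that cells keep at a high level as a defence against oxidants and reactive chemicals. Glutamate-cysteine ligase, built from a catalytic subunit (*Gclc*) and a modifier subunit (*Gclm*), carries out the rate-limiting step of its synthesis. Glutathione transferases then join it to electrophiles, including drugs, food toxins and products of lipid peroxidation, glutathione peroxidases use it to reduce peroxides, and glutathione reductase (*Gsr*) returns the oxidised form. Absorptive cells of the intestine hold much of this machinery, since they meet dietary chemicals first.

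RNA came from the whole small intestine, stomach end to cecum, of fasted 10-week-old C57BL/6J mice on a standard chow diet, described as littermates. There were 4 genotypes in each sex: WT, Fabp2-/-, Fabp6-/- and Fabp2-/-;Fabp6-/-, the last called double-null here. Each of the 8 groups was represented by 2 pools, each of RNA from 2 mice, so that the replicate is a pool and differences between single mice were averaged before measurement. All 16 pools were hybridised to an Affymetrix 430A and a 430B array, 32 arrays in all, and the values are RMA signals on the log2 scale, where a difference of 1 is a 2-fold difference. A member was called where its adjusted p (limma, Benjamini-Hochberg over all probe sets of 1 gene on its chip) was under 0.2 and its log2 fold change was over 0.5 in size. Fold changes are given with their standard error (SE). In a whole-organ sample, fewer cells of a type and less RNA per cell cannot be told apart.

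Signal for *Fabp2* was 12.58 to 13.05 in the 8 pools with the gene and 8.98 to 9.98 in the 8 without it. *Fabp6* was 10.50 to 11.32 in its 8 intact pools and 4.80 to 5.04 in 7 of its 8 null pools, but the library labelled Fabp6-/- female replicate 2 read 9.21. The main values that draw on this library are therefore also given after leaving it out. Over 100 probe sets present on both chips, 14 of the 16 pools matched their own second array best, and WT female replicate 2 and Fabp2-/- female replicate 1 did not, which bears on the 5 members measured on 430B. The enterocyte marker list (8 of 9 genes measured, the mean level of the list) stood at 11.94 to 12.23 in every pool. Other marker lists differed between some groups. The crypt list was 8.17 to 8.22 in WT pools and 7.89 to 8.08 in Fabp2-/- pools. Smooth muscle was 9.19 to 9.44 in WT females and 8.86 to 9.13 in Fabp2-/- females. The goblet list was 11.52 to 11.66 in WT pools and 11.69 to 11.76 in double-null pools. The part of these cell types in the members' differences was not tested.

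Members were well expressed as a whole: 40 of 55 probe sets lay above the median of their chip. *Gstp1* (mean 11.77), *Gsto1* (11.72) and *Mgst1* (11.29) were among the members with the highest signal, and *Mgst1* also had a second probe set at 3.83, so that a probe set's signal is not a level that can be set against another's. Across the 16 pools 23 members ranged over less than 0.5, and 12 ranged over 1 or more. The range was 0.37 for *Gpx1* and 1.58 for *Gclc*, the ends of that scale.

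Averaged over the second gene and over sex, loss of Fabp2 called 0 of 55 members, against 0.285% of all probe sets called in that comparison of 8 with 8 pools. Loss of Fabp6 likewise called 0, against 0.205%. At an unadjusted p under 0.05 in limma, 15 members differed with Fabp2 and 21 with Fabp6, where 17.6% and 14.9% of all probe sets did. Taking each genotype and sex apart gave another picture. Fabp2-/- females had 7 members lower than WT females, of 6 genes and none higher (background 0.508%, or 0.433% called lower). Fabp2-/- males had 2 lower (background 0.465%, or 0.288% called lower). Double-null males had 7 members higher, of 6 genes, and 1 lower (background 1.04%, or 0.585% called higher and 0.451% lower). Double-null females had 1 higher (0.576%, or 0.208% called higher), Fabp6-/- females 1 lower (0.282%, or 0.131% called lower) and Fabp6-/- males 0 (0.291%, with 8 members at an unadjusted p under 0.05, as were 9.33% of all probe sets). The 3 comparisons of each sex share its WT pools, so they are not independent of each other.

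Several of these counts were moved by single pools. Without WT male replicate 1 or Fabp2-/- male replicate 1, 0 members were called in Fabp2-/- males, and 1 without WT male replicate 2. In Fabp2-/- females the count was 2 without WT female replicate 1 and 4 without Fabp2-/- female replicate 2. In Fabp6-/- females it was 0 without WT female replicate 1, 2 without WT female replicate 2 and 4 on omission of the doubted Fabp6-/- library, among them *Gstk1* (−0.60) and *Gstm7* (−0.54). In double-null males it was 5 without WT male replicate 1. The absence of calls with loss of Fabp6 also rested on the doubted library, since without it both *Gclc* probe sets were called higher in the Fabp6-null pools (0.53 and 0.54, from 0.47 and 0.48). The median over the 55 members was −0.10 in Fabp2-/- females and 0.16 in double-null males, where the medians of all probe sets were 0.00066 and −0.0095.

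**Figure D1:**
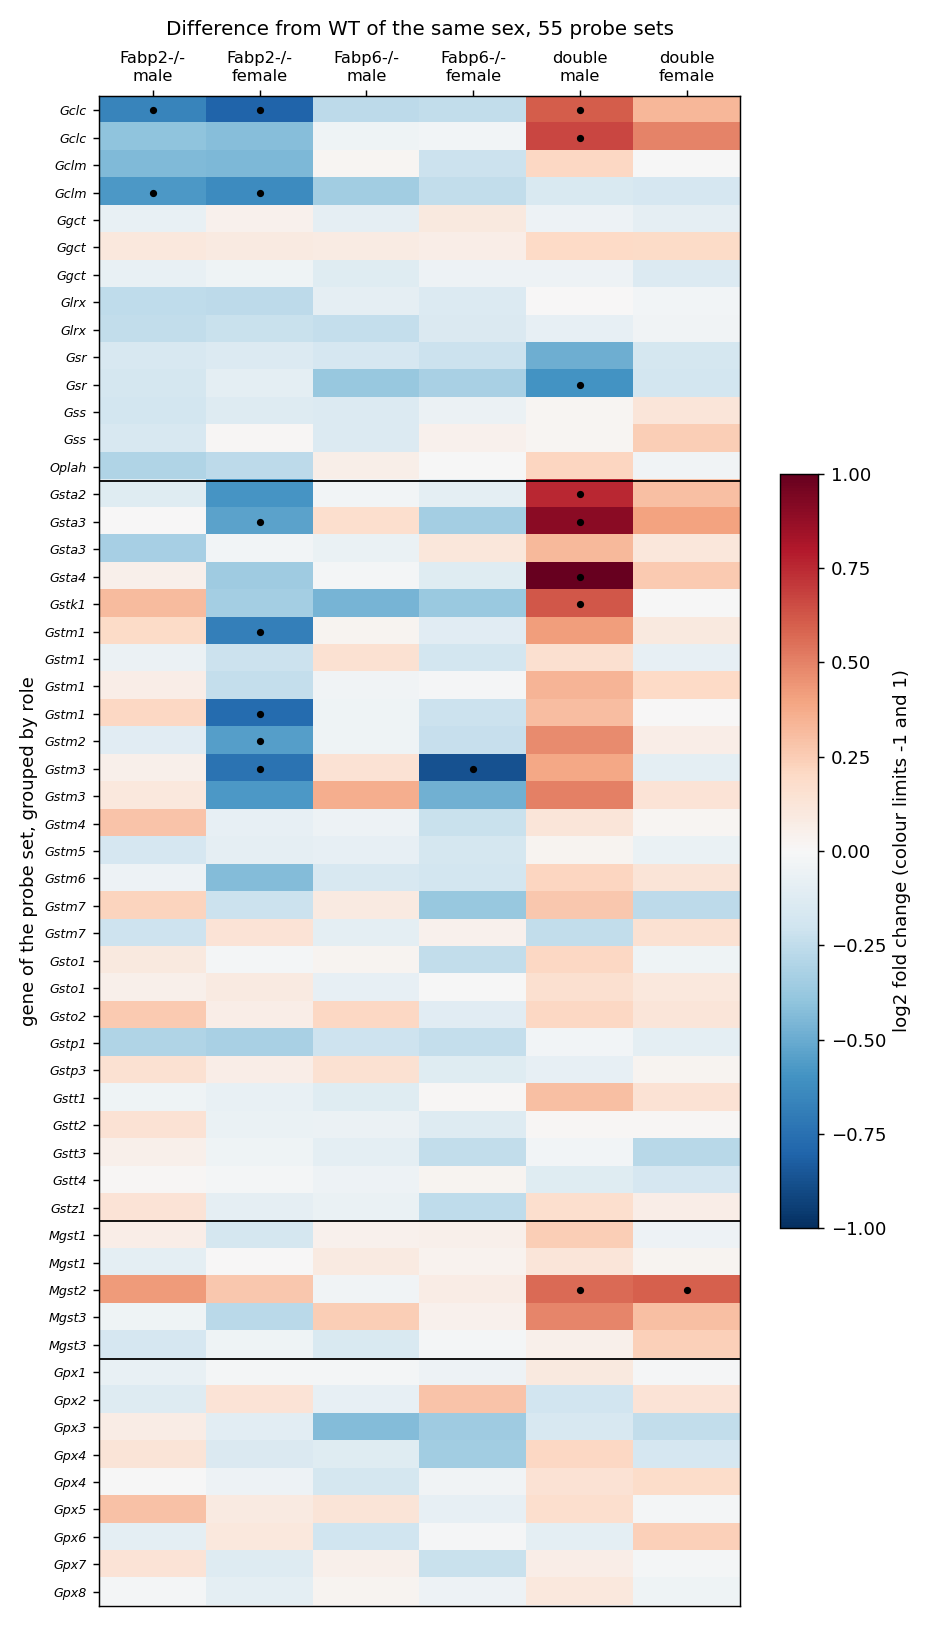
Log2 fold change from WT of the same sex (colour, blue lower and red higher, with limits at −1 and 1) for the 55 member probe sets (lines, grouped by role) in 6 comparisons of 2 with 2 pools (columns); black dots mark called members. Blue lines gather among synthesis genes and Gsta and Gstm transferases in Fabp2-/- females, where 12 of the 55 lie above 0, and 41 of the 55 lie above 0 in double-null males.

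More members were called between losing Fabp2 alone and losing it in mice that also lacked Fabp6 than in any other of the 20 comparisons. This comparison was added after the values were seen: the effect of Fabp2 loss with Fabp6 lost (double-null minus Fabp6-/-) minus its effect with Fabp6 intact (Fabp2-/- minus WT), over all 16 pools. It called 14 of 55 members, of 10 genes, all with the more positive effect in the Fabp6-null background, where 1.08% of all probe sets were called and 0.610% in that direction. By role these were 4 of 14 probe sets of synthesis, recycling and thiol exchange, 10 of 27 soluble transferases, 0 of 5 membrane-bound transferases and 0 of 9 peroxidases. The median over the members was 0.25, against 0.012 over all probe sets. Leaving out each pool in turn called 11 to 15 members. With the doubted Fabp6-/- library omitted the same 14 were called and *Gstp1* was added (0.53, from 0.47). The differences then were 1.33 and 0.92 for the *Gclc* probe sets, 0.69 and 0.80 for *Gclm*, 1.01 for *Gsta2*, 1.02 for *Gsta3*, 0.89 for *Gsta4* and 0.85 for *Gstk1*. Among the *Gstm* genes they were 0.52 for each of the 2 called *Gstm1* probe sets (of 4), 0.77 for *Gstm2*, 1.05 and 0.83 for *Gstm3* and 0.67 for *Gstm6*. The doubted library thus moved no call out of the 14. The pair of effects that enter the difference share no pools. With Fabp6 intact, 2 members were lower in Fabp2-/- mice of both sexes and 0 higher (0.442% of all probe sets called, 0.311% lower), and with Fabp6 lost, 8 members of 7 genes were higher and 0 lower (0.844%, 0.294% higher). Between double-null and WT mice of both sexes 5 members were higher and 0 lower (0.647%, 0.308% higher): *Gclc* on 1 of 2 probe sets (0.58), *Gsta2* (0.53), *Gsta3* (0.65), *Gsta4* (0.64) and *Mgst2* (0.58). *Gclc* was not called there without Fabp2-/-;Fabp6-/- male replicate 2 (0.47), and *Gsta2* was not called without that genotype's female replicate 1 (0.38), WT male replicate 1 (0.48) or WT female replicate 1 (0.47).

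**Figure D2:**
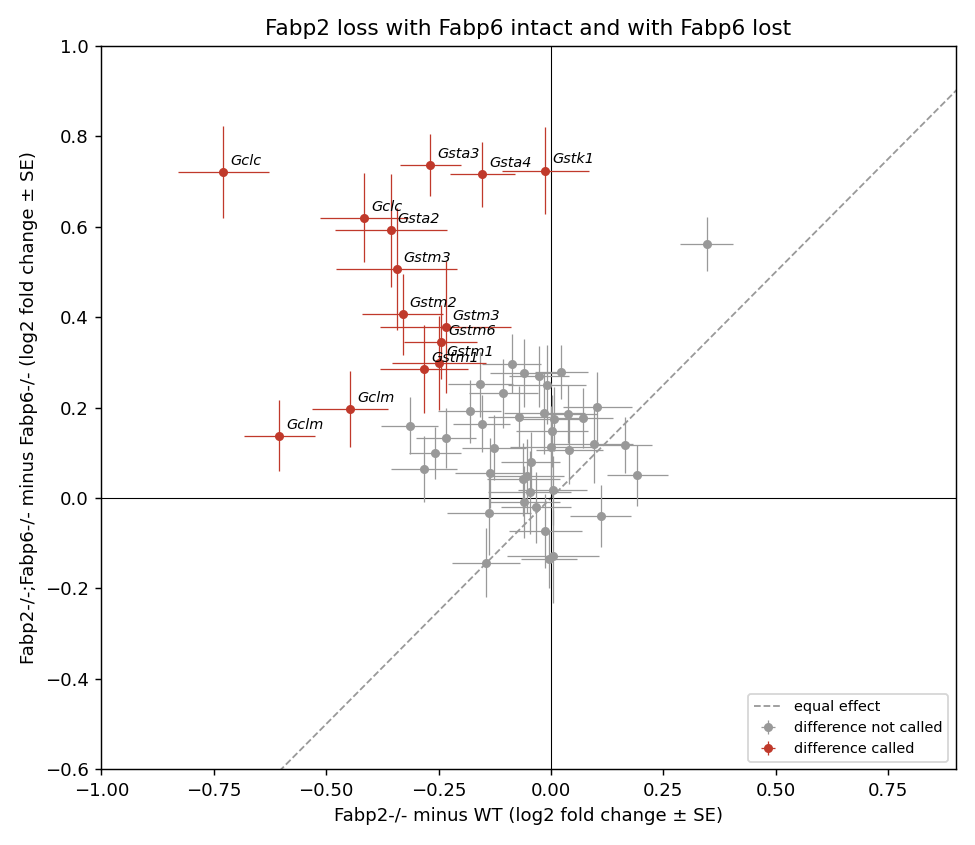
Log2 fold change with loss of Fabp2 when Fabp6 was intact (horizontal axis, Fabp2-/- minus WT) and when Fabp6 was also lost (vertical axis, double-null minus Fabp6-/-), 55 member probe sets, each axis 4 against 4 pools with bars of 1 SE; the dashed line marks equal effects. The 14 red probe sets, where the difference was called, lie above the line, with *Gclc* farthest from it at −0.73 and 0.72.

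*Gclc*, which encodes the catalytic subunit, had the widest range of the 55 members. Its signal was 8.95 and 9.04 in WT males and 9.15 and 8.99 in WT females. In Fabp2-/- mice it was 8.25 and 8.42 in males and 8.24 and 8.30 in females, below every other pool. In Fabp6-/- mice it was 8.71 and 8.76 in males and 9.07 and 8.57 in females, which overlapped WT. In double-null mice it was 9.37 and 9.82 in males and 9.41 and 9.40 in females, above every other pool. Relative to WT, *Gclc* fell by 0.73 in Fabp2-/- mice (SE 0.10, adjusted p = 0.00093, limma, 4 against 4 pools). Relative to Fabp6-/- mice it rose by 0.72 in double-null mice (SE 0.10, adjusted p = 0.000498). The difference of these effects was 1.45 (SE 0.14, 95% confidence interval 1.15 to 1.75, adjusted p = 4.23e-05), and it was 1.33 without the library labelled Fabp6-/- female replicate 2. A second *Gclc* probe set, whose suffix marks possible shared sequence, followed the first with a correlation of 0.96 over the 16 pools and gave a difference of 1.04 (SE 0.14). Within a sex the calls were less firm. The fall in Fabp2-/- females (−0.80, adjusted p = 0.019) was not called without WT female replicate 1 (−0.72), and that in Fabp2-/- males (−0.66) was not called without WT male replicate 1 (−0.70), WT male replicate 2 (−0.62) or Fabp2-/- male replicate 1 (−0.57). The rise in double-null males (0.60) was 0.38 without Fabp2-/-;Fabp6-/- male replicate 2 and 0.56 without WT male replicate 1, neither called.

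*Gclm*, the modifier subunit, was low in the same Fabp2-/- pools. On its 430B probe set the signal was 7.79 and 7.58 in WT males and 7.67 and 7.77 in WT females. It was 7.00 and 7.21 in Fabp2-/- males and 7.01 and 7.16 in Fabp2-/- females, the 4 lowest values of the 16. It was 7.29 and 7.37 in Fabp6-/- males and 7.37 and 7.58 in Fabp6-/- females. Double-null males read 7.70 and 7.36, and double-null females 7.58 and 7.52, overlapping the lower end of the WT range. *Gclm* fell by 0.60 in Fabp2-/- mice of both sexes (SE 0.079, adjusted p = 0.000269), while double-null mice differed from WT by −0.16 (SE 0.079, adjusted p = 0.295). The difference between the effects of Fabp2 loss was 0.74 (SE 0.11, adjusted p = 0.00296). The probe set on 430A gave −0.45 in Fabp2-/- mice (adjusted p = 0.011), under the limit on fold change, and 0.64 for the difference, which was called. Its WT pools read 9.44 to 9.62, its Fabp2-/- pools 9.05 to 9.25 and its double-null pools 9.86 and 9.57 in males and 9.45 and 9.74 in females, a difference of 0.099 from WT that was not called. The fall in Fabp2-/- females was called without each pool, the pair that did not match between chips included (range −0.70 to −0.56). In males it was −0.47 and not called without WT male replicate 1 or without Fabp2-/- male replicate 1.

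The other genes of synthesis and recycling had few calls. Glutathione synthetase (*Gss*), gamma-glutamylcyclotransferase (*Ggct*) and 5-oxoprolinase (*Oplah*), which act in the second step of synthesis and in the return of glutamate, and glutaredoxin (*Glrx*), which removes glutathione from proteins, were called in none of the comparisons. *Gsr* was lower in double-null males by 0.60 on 1 of its 2 probe sets (SE 0.13, adjusted p = 0.030) and by 0.49 on the other, which was not called (adjusted p = 0.028). The call was lost without WT male replicate 1 (−0.60, adjusted p = 0.219) or Fabp2-/-;Fabp6-/- male replicate 1 (−0.57, adjusted p = 0.231).

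The promoters of *Gclm* and *Gsta3* are shown because both genes were called for the difference and both windows hold the core of the antioxidant response element, the site of the stress factor NRF2. Each run is 300 bases, 250 before to 50 after the RefSeq start (GRCm38.p6), 5′ to 3′ on the gene's strand, which is the plus strand for both, with the matches to TGACNNNGC on either strand in capitals.
Gclm, chr3:122245307-122245606: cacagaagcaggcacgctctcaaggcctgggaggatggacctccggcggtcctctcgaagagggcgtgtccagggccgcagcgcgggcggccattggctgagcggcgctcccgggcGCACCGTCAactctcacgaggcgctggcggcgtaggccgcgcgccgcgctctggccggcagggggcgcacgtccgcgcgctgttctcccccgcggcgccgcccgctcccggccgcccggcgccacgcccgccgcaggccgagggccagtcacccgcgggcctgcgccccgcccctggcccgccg
Gsta3, chr1:21240335-21240634: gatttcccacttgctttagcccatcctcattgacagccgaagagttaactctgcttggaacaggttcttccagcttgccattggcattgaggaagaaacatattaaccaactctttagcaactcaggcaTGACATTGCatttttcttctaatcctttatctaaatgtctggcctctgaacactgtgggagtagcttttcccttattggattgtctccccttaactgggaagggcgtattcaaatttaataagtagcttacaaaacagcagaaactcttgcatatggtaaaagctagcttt
In *Gclm* the match is on the opposite strand and begins 134 bases before the start. In *Gsta3* it reads in the direction of the gene and begins 121 bases before the start. A promoter was given for 33 of the 38 genes, 46 windows in all, and 6 windows (13%) held the core, against 12.4% of 32851 promoters. *Ggct*, *Gstm5*, *Gstm7* and *Mgst1* were the other genes with a match, and none of them was called for the difference. *Gclc*, *Gsr*, *Gsta4*, *Gstt2* and *Oplah* had no promoter in the table. A match describes the letters of the window alone.

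**Figure D3:**
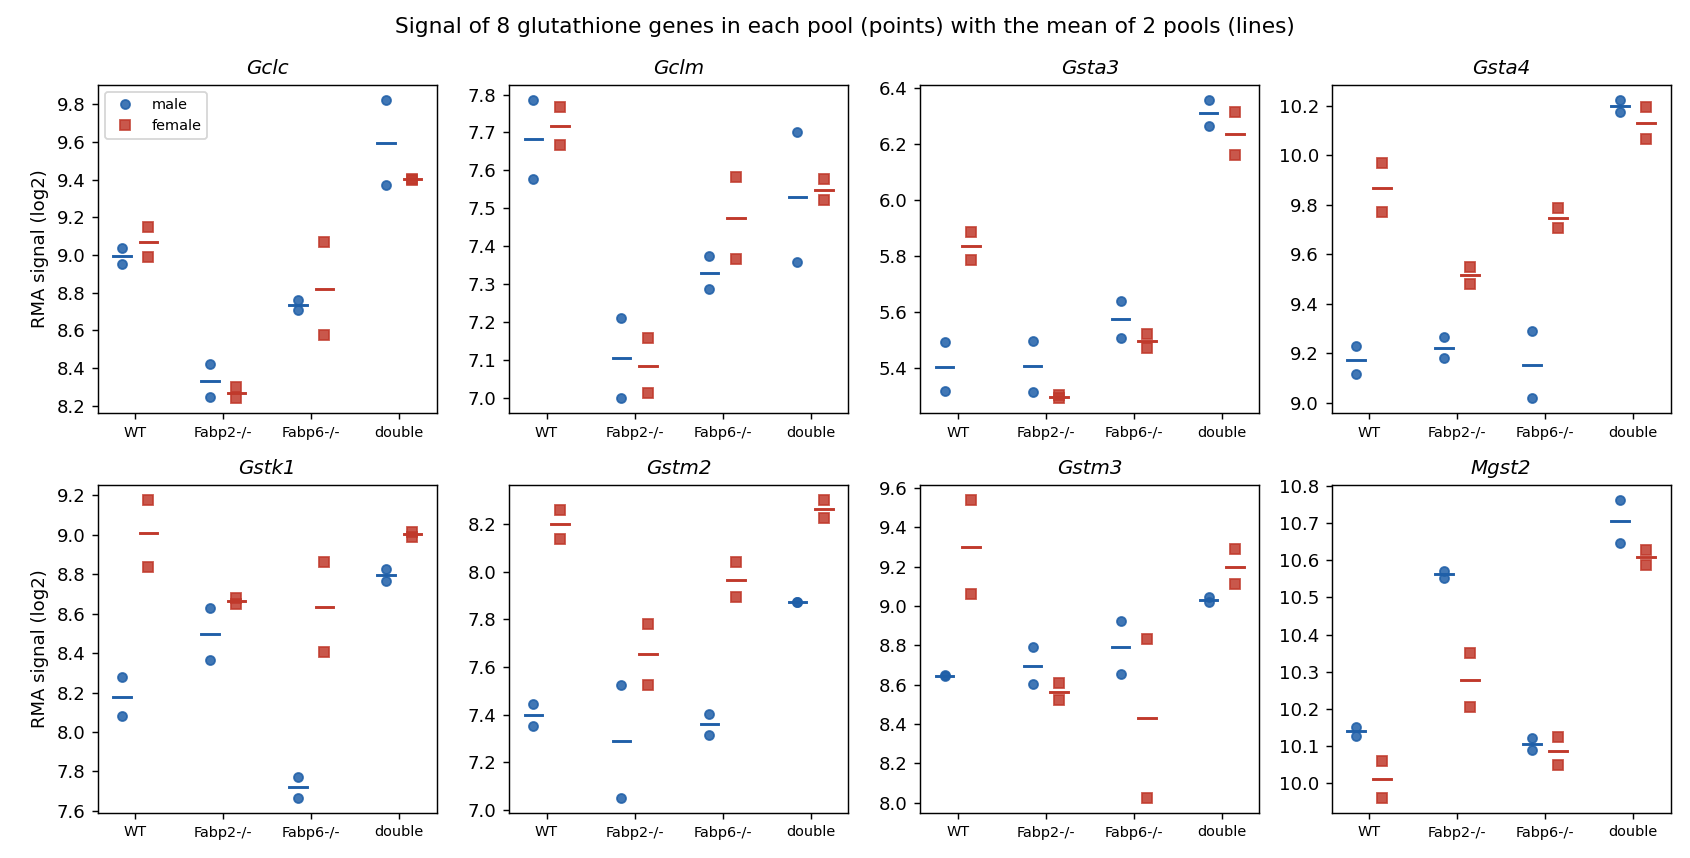
RMA signal on the log2 scale (vertical axes, each with its own range) of 8 member genes in the 4 genotypes (double is Fabp2-/-;Fabp6-/-), with a point for each pool, blue circles for males and red squares for females, and a line at the mean of 2 pools. *Gclc* and *Gclm* are lowest in all 4 Fabp2-/- pools, and *Gsta3* and *Gsta4* are highest in the 4 double-null pools.

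The alpha-class transferases were the members that rose furthest in double-null males. *Gsta4* encodes the enzyme best known for conjugating 4-hydroxynonenal, a product of lipid peroxidation. Its signal was 9.23 and 9.12 in WT males and 9.97 and 9.77 in WT females. Fabp2-/- males read 9.18 and 9.27, and Fabp2-/- females 9.48 and 9.55. Fabp6-/- males read 9.02 and 9.29, and Fabp6-/- females 9.71 and 9.79. The 4 double-null pools read 10.22 and 10.18 in males and 10.07 and 10.20 in females, above all others. *Gsta4* rose by 1.03 in double-null males (SE 0.10, adjusted p = 4.14e-05), a call that held without any 1 pool (0.97 to 1.08), and was 0.26 higher in double-null females (SE 0.10, adjusted p = 0.333), which was not called. The difference between the effects of Fabp2 loss was 0.87 (SE 0.10, adjusted p = 0.000219).

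*Gsta3*, a second alpha-class enzyme, was low in signal. It read 5.32 and 5.49 in WT males and 5.79 and 5.89 in WT females. Fabp2-/- males read 5.32 and 5.50, and Fabp2-/- females 5.31 and 5.29. Fabp6-/- males read 5.51 and 5.64, and Fabp6-/- females 5.47 and 5.52. Double-null males read 6.36 and 6.26, and double-null females 6.16 and 6.31, so the double-null pools did not overlap the rest. *Gsta3* fell by 0.54 in Fabp2-/- females (SE 0.096, adjusted p = 0.018, and −0.49 and not called without WT female replicate 2) and rose by 0.90 in double-null males (SE 0.096, adjusted p = 7.33e-05). In double-null females it was 0.40 above WT, under the limit. The difference between the effects of Fabp2 loss was 1.01 (SE 0.096, 95% confidence interval 0.80 to 1.21). A second *Gsta3* probe set gave 0.37 for that difference and was not called (adjusted p = 0.070). *Gsta2* read 5.54 and 5.76 in WT males, 5.79 and 6.04 in WT females, 5.67 and 5.38 in Fabp2-/- males and 5.09 and 5.55 in Fabp2-/- females. It read 5.55 and 5.69 in Fabp6-/- males, 5.68 and 5.94 in Fabp6-/- females, 6.36 and 6.45 in double-null males and 6.51 and 5.91 in double-null females, so that 1 double-null pool overlapped the others. *Gsta2* rose by 0.76 in double-null males (SE 0.18, adjusted p = 0.039), or by 0.65 and not called without WT male replicate 1. Its difference between effects was 0.95 (SE 0.18, adjusted p = 0.00863).

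*Gstk1*, the kappa-class transferase of mitochondria and peroxisomes, rose against the Fabp6-/- mice rather than falling in Fabp2-/- mice. Its signal was 8.28 and 8.08 in WT males and 9.18 and 8.84 in WT females. Fabp2-/- males read 8.37 and 8.63, and Fabp2-/- females 8.68 and 8.65. Fabp6-/- males, at 7.67 and 7.77, were the lowest of all groups, and Fabp6-/- females read 8.40 and 8.86. Double-null males read 8.77 and 8.83, and double-null females 9.01 and 8.99. Fabp2-/- mice differed from WT by −0.01 (SE 0.097), whereas double-null mice exceeded Fabp6-/- mice by 0.72 (SE 0.097, adjusted p = 0.000293), or 0.84 without the library labelled Fabp6-/- female replicate 2.

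The mu-class genes (*Gstm1* to *Gstm7*) make up 12 probe sets in a cluster of closely related genes, so that a probe set may read more than 1 of them. In Fabp2-/- females 4 of the 12 were lower and 0 higher, with a median of −0.34. *Gstm1* fell by 0.77 there (SE 0.14, adjusted p = 0.018), from 10.32 and 9.94 in WT females to 9.51 and 9.20. In males the same probe set read 9.58 and 9.44 in WT and 9.66 and 9.77 in Fabp2-/- mice, a difference of 0.21 that was not called, and the difference between the sexes in this effect (−0.98, SE 0.20, adjusted p = 0.403) was not called either. Fabp6-/- pools read 9.35 and 9.59 in males and 10.01 and 9.80 in females, and double-null pools 9.78 and 9.86 in males and 10.27 and 9.99 in females. Thus WT females, not males, stood above their Fabp2-/- counterparts for *Gstm1*. The call in females was lost without WT female replicate 1 (−0.58) or Fabp2-/- female replicate 2 (−0.62). The difference between the effects of Fabp2 loss was 0.57 (SE 0.14, adjusted p = 0.046), and was not called without WT female replicate 1 (0.47), Fabp2-/- female replicate 2 (0.49) or Fabp2-/-;Fabp6-/- female replicate 1 (0.496). These values are from 1 of 4 *Gstm1* probe sets. A second was also called in Fabp2-/- females (−0.69) and for the difference. The remaining ones were called in neither, with means of 7.88 in WT and 7.67 in Fabp2-/- females, and 8.31 and 8.07.

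*Gstm2*, which lies in the same cluster, read 7.45 and 7.35 in WT males and 8.26 and 8.14 in WT females, which did not overlap. Fabp2-/- males read 7.05 and 7.52, and Fabp2-/- females 7.78 and 7.52. Fabp6-/- males read 7.32 and 7.40, and Fabp6-/- females 7.90 and 8.04. Double-null males read 7.87 and 7.87, and double-null females 8.30 and 8.23. Every double-null male pool thus lay above every male pool of the other genotypes. *Gstm2* fell by 0.55 in Fabp2-/- females (SE 0.13, adjusted p = 0.090), and was not called without WT female replicate 1 (−0.49), WT female replicate 2 (−0.61) or Fabp2-/- female replicate 2 (−0.42). The difference between the effects of Fabp2 loss was 0.74 (SE 0.13, adjusted p = 0.00462) and was called without each of the 16 pools.

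Single pools weighed heavily on *Gstm3*. It read 8.64 and 8.65 in WT males and 9.54 and 9.06 in WT females. Fabp2-/- males read 8.79 and 8.60, and Fabp2-/- females 8.61 and 8.52. Fabp6-/- males read 8.65 and 8.92, while Fabp6-/- females read 8.02 and 8.83, the widest gap of any group. Double-null males read 9.02 and 9.05, and double-null females 9.29 and 9.11. Its fall in Fabp2-/- females (−0.74, SE 0.19, adjusted p = 0.169) was −0.50 and not called without WT female replicate 1, and was not called without either Fabp2-/- female pool (−0.78 and −0.69). Its fall in Fabp6-/- females (−0.87, SE 0.19, adjusted p = 0.106) was −0.47 and not called without Fabp6-/- female replicate 1, was −0.63 and not called without WT female replicate 1, and was −1.28 with the doubted replicate 2 omitted. For the difference between the effects its probe sets gave 0.85, called without each pool, and 0.61, which was not called on omission of any of 11 of the 16 pools.

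The remaining mu-class probe sets were less variable. *Gstm6* read 8.11 and 7.96 in WT males, 8.47 and 8.32 in WT females, 7.86 and 8.10 in Fabp2-/- males and 7.999 and 7.92 in Fabp2-/- females. It read 7.77 and 7.98 in Fabp6-/- males, 8.06 and 8.36 in Fabp6-/- females, 8.29 and 8.21 in double-null males and 8.53 and 8.53 in double-null females, the last being the highest group. *Gstm6* was called for the difference between the effects (0.59, SE 0.11, adjusted p = 0.011). *Gstm4* and *Gstm5* were called in none of the comparisons, and *Gstm7* was called in the sex comparison given later. Theta-class (*Gstt1* to *Gstt4*), omega-class (*Gsto1*, *Gsto2*), pi-class (*Gstp1*, *Gstp3*) and zeta-class (*Gstz1*) transferases were called in no comparison, planned or added, over all 16 pools; *Gstp1*, the exception without the doubted library, was given above.

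Among the membrane-bound transferases, *Mgst2*, which can form leukotriene C4 as well as conjugate chemicals, followed Fabp2 in both backgrounds. It read 10.15 and 10.13 in WT males and 9.96 and 10.06 in WT females. Fabp6-/- pools read 10.09 and 10.12 in males and 10.05 and 10.12 in females. Fabp2-/- pools read 10.57 and 10.55 in males and 10.35 and 10.20 in females, and double-null pools 10.65 and 10.76 in males and 10.59 and 10.63 in females. All 8 Fabp2-null pools therefore stood above all 8 Fabp2-intact pools. The mean difference was 0.45 (SE 0.042, adjusted p = 6.1e-06), which fell short of the limit of 0.5. *Mgst2* was called in double-null males (0.57, SE 0.085) and females (0.60, SE 0.085), and also when any 1 pool was omitted. The difference between its effects was 0.22 (SE 0.085, adjusted p = 0.275) and was not called. *Mgst1* and *Mgst3* were called in none of the comparisons.

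None of the 9 peroxidase probe sets was called in any of the 20 comparisons, and at an unadjusted p under 0.05 in limma 0 to 3 of them differed. *Gpx1*, the main cytosolic selenoenzyme, ranged from 10.61 to 10.98 over all pools, with 10.83 and 10.85 in WT males, 10.79 and 10.61 in WT females, 10.86 and 10.68 in Fabp2-/- males, 10.73 and 10.64 in Fabp2-/- females, 10.86 and 10.77 in Fabp6-/- males, 10.62 and 10.68 in Fabp6-/- females, 10.98 and 10.90 in double-null males and 10.64 and 10.74 in double-null females. Those ranges overlapped between all 4 genotypes. Its difference with Fabp2 loss was 0.018 (95% confidence interval −0.080 to 0.11) and that with Fabp6 loss 0.026 (−0.071 to 0.12). *Gpx2*, the gastrointestinal form, read 10.75 and 10.50 in WT males, 10.13 and 10.27 in WT females, 10.56 and 10.44 in Fabp2-/- males, 10.18 and 10.50 in Fabp2-/- females, 10.78 and 10.30 in Fabp6-/- males, 10.55 and 10.42 in Fabp6-/- females, 10.32 and 10.54 in double-null males and 10.42 and 10.25 in double-null females. Its pools overlapped between genotypes too, with a difference of −0.063 with Fabp2 loss (95% confidence interval −0.22 to 0.091). *Gpx4*, which reduces lipid hydroperoxides in membranes, read 10.49 and 10.59 in WT males, 11.05 and 10.58 in WT females, 10.73 and 10.60 in Fabp2-/- males, 10.59 and 10.76 in Fabp2-/- females, 10.36 and 10.48 in Fabp6-/- males, 10.50 and 10.44 in Fabp6-/- females, 10.72 and 10.77 in double-null males and 10.57 and 10.72 in double-null females. On this probe set the Fabp6-/- pools lay below the Fabp2-/- and double-null pools, and overlapped WT. Its difference with Fabp2 loss was 0.12 (95% confidence interval −0.0088 to 0.25). On the second *Gpx4* probe set the Fabp6-/- pools read 10.18 to 10.45 and overlapped the Fabp2-/- pools, at 10.29 to 10.55. *Gpx3*, *Gpx5*, *Gpx6*, *Gpx7* and *Gpx8* likewise had no call.

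Female mice had the higher signal for several transferases. Averaged over the 4 genotypes, 2 of 55 members were higher in females and 0 lower, *Gstm2* by 0.54 (SE 0.063, adjusted p = 0.000191) and *Gstk1* by 0.53 (SE 0.069, adjusted p = 0.000568), where 0.111% of all probe sets were called and 0.0570% were higher in females. Both lie near the limit of 0.5: without Fabp2-/- male replicate 1 neither was called (0.48 and 0.496 in that order), and *Gstk1* was also not called without WT female replicate 1 (0.49) or the library labelled Fabp6-/- female replicate 2 (0.47). *Gsta4* differed by 0.38 (SE 0.051, adjusted p = 0.000852). With no limit on fold change, 5 members were higher in females and 4 lower at an adjusted p under 0.2 in limma. In WT mice both *Gsr* probe sets were lower in females, neither called. Their means were 9.61 in males and 9.17 in females, and 9.63 and 9.29. By genotype, 5 members were higher in WT females (background 0.174%, or 0.125% called higher, with 2 members called without WT female replicate 1 and 3 without either WT male pool), 3 in Fabp6-/- females (0.265%, or 0.125% called higher), 0 in Fabp2-/- females (0.0570%) and 0 in double-null females (0.0627%). At an unadjusted p under 0.05 in limma, 8 members differed between the sexes of Fabp2-/- mice and 6 between those of double-null mice, against 6.74% and 6.19% of all probe sets.

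In WT mice *Gstk1* was higher in females by 0.83 (SE 0.14), *Gstm2* by 0.80 (SE 0.13), *Gsta4* by 0.70 (SE 0.10), *Gstm1* by 0.62 (SE 0.14) and *Gstm7* by 0.51 (SE 0.11). Of these, *Gstm2* and *Gsta4* were called without each of the 4 pools, *Gstk1* was not called on omission of WT female replicate 1 (0.66) or of WT male replicate 2 (0.73), and *Gstm1* and *Gstm7* kept their calls only when WT female replicate 2 was the pool left out. In Fabp2-/- mice the same members, in that order, differed by 0.17, 0.37, 0.29, −0.36 and 0.072, and in double-null mice by 0.20, 0.39, −0.07, 0.31 and −0.026. In Fabp6-/- mice, where Fabp2 was intact, they differed by 0.91, 0.61, 0.59, 0.44 and 0.037, the last 2 not called. The *Gstm1* and *Gstm7* values are each from 1 probe set. The second *Gstm7* probe set went the other way in WT, with means of 7.04 in males and 6.82 in females, not called. The other *Gstm1* probe sets were higher in WT females but not called. Their means were 9.89 in males and 10.44 in females, 7.54 and 7.88, and 8.10 and 8.31. Whether the sex difference itself differed from that of WT was tested, and 0 of 55 members were called in Fabp2-/- (background 0.0114%), Fabp6-/- (0.00285%) or double-null mice (0.00285%). At an unadjusted p under 0.05 in limma the counts were 14, 7 and 9, against 5.28%, 4.57% and 6.67% of all probe sets. The member with the lowest adjusted p was *Gsta4* in double-null mice, with −0.76 (SE 0.14, adjusted p = 0.313). With all pools kept, a different sex difference was therefore called for no member. Without the library labelled Fabp6-/- female replicate 2, the 3 calls in Fabp6-/- mice were kept (*Gstk1* 0.69, *Gstm2* 0.54 and *Gsta4* 0.55) and both *Gstm3* probe sets were called lower in females (−0.77 each), with a sex difference that also differed from that of WT (−1.42 and −1.27). On that omission the *Gsta4* sex difference in double-null mice was also called as different from that of WT, its value unchanged (−0.76). In Fabp6-/- mice *Gsta4* was not called without male replicate 1 (0.46), nor *Gstm2* without male replicate 1 (0.56) or 2 (0.65).

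**Figure D4:**
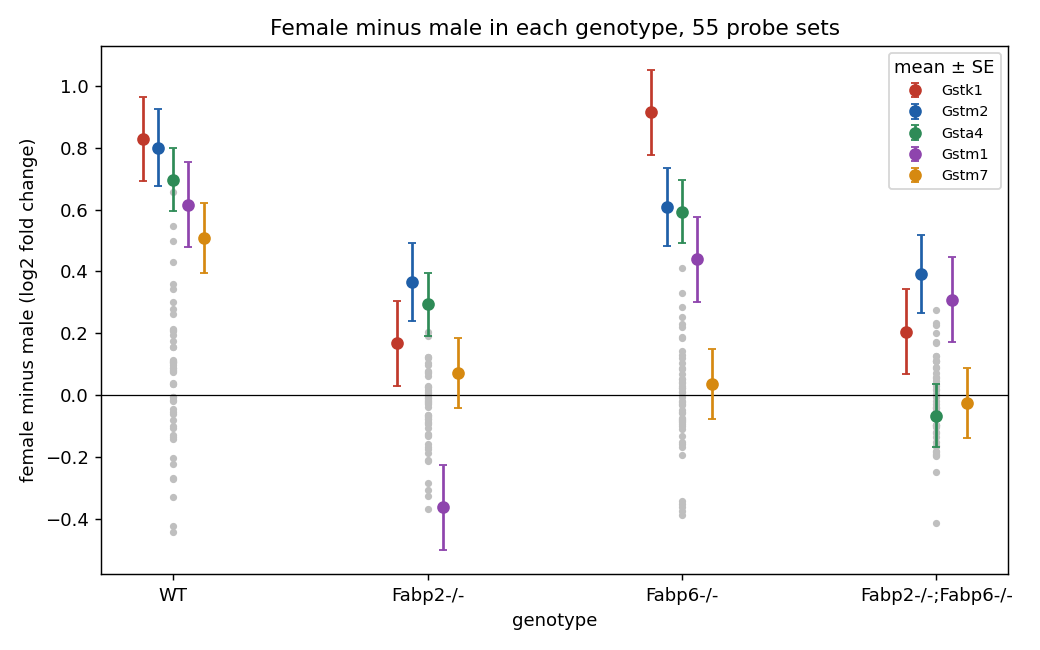
Female minus male difference (log2 fold change, vertical axis) in each genotype (horizontal axis) for the 55 member probe sets, 2 against 2 pools; coloured points with bars of 1 SE are the 5 members called in WT and grey points are the others. *Gstk1*, *Gstm2* and *Gsta4* lie between 0.59 and 0.91 in WT and Fabp6-/- mice and between −0.07 and 0.39 in the genotypes without Fabp2. They were picked by their calls in WT and Fabp6-/- mice, so lower values in the other genotypes follow in part from that choice. With all pools kept, no member's sex difference was called as different from that of WT. Fabp2-intact and Fabp2-null mice were not tested against each other for it. The called *Gstm7* probe set lies at 0.51 in WT and 0.037 in Fabp6-/- mice.

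*Gclm*, the *Gstm* genes and *Mgst2*, 15 probe sets of 9 genes, lie on chromosome 3 with *Fabp2*, the targeted gene. In the RefSeq order of genes *Gclm* is 22 genes from *Fabp2*, the *Gstm* cluster 203 to 212 genes away on the same side, and *Mgst2* 1427 genes away. Alleles near a targeted gene tend to stay with it when a line is bred, so these members were set apart. In Fabp2-/- mice of both sexes 10 of 309 other probe sets within 200 genes of *Fabp2* were called (3.24%), 25 of 1469 on the rest of the chromosome (1.70%) and 117 of 33028 on other chromosomes (0.354%). The shares near *Fabp2* and on the rest of the chromosome were thus above the share on other chromosomes. For *Gclm*, the *Gstm* genes and *Mgst2*, linked alleles cannot be told apart from Fabp2 loss in the comparison of Fabp2-/- with WT. Comparing double-null with Fabp6-/- mice, 2.27% were called near *Fabp2* and 0.757% on other chromosomes, and the *Gclm* probe sets differed by 0.14 and 0.20, neither called. For the difference between the effects, 3 of 309 (0.971%) were called near *Fabp2*, against 1.03% on other chromosomes. That window of 200 genes leaves out the *Gstm* cluster. Within 400 genes, a window that reaches past the cluster, 10 of 605 other probe sets were called (1.65%). On the rest of the chromosome beyond 200 genes the count was 22 of 1469 (1.498%). Both shares were above that on other chromosomes. Of the 14 members called for it 8 lie on chromosome 3 (of 15 there) and 6 elsewhere (of 40).

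*Gclc*, *Gsta4* and *Gsta2* also lie close together, on chromosome 9, where *Gsta4* is 14 and *Gsta2* 23 genes from *Gclc*. Around *Gclc*, 7 of 309 other probe sets within 200 genes were called in Fabp2-/- mice (2.27%), against 0.404% on other chromosomes, and 11 of 309 (3.56%) between double-null and Fabp6-/- mice, against 0.787%. For the difference between the effects the share was 0.971% near *Gclc* and 1.06% on other chromosomes. The part of alleles around *Gclc* in the *Gclc*, *Gsta4* and *Gsta2* values was not tested. These regions were examined after the values were seen. *Gsta3* and *Gstk1*, which were called for the difference as well, lie on chromosomes 1 and 6.

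**Figure D5:**
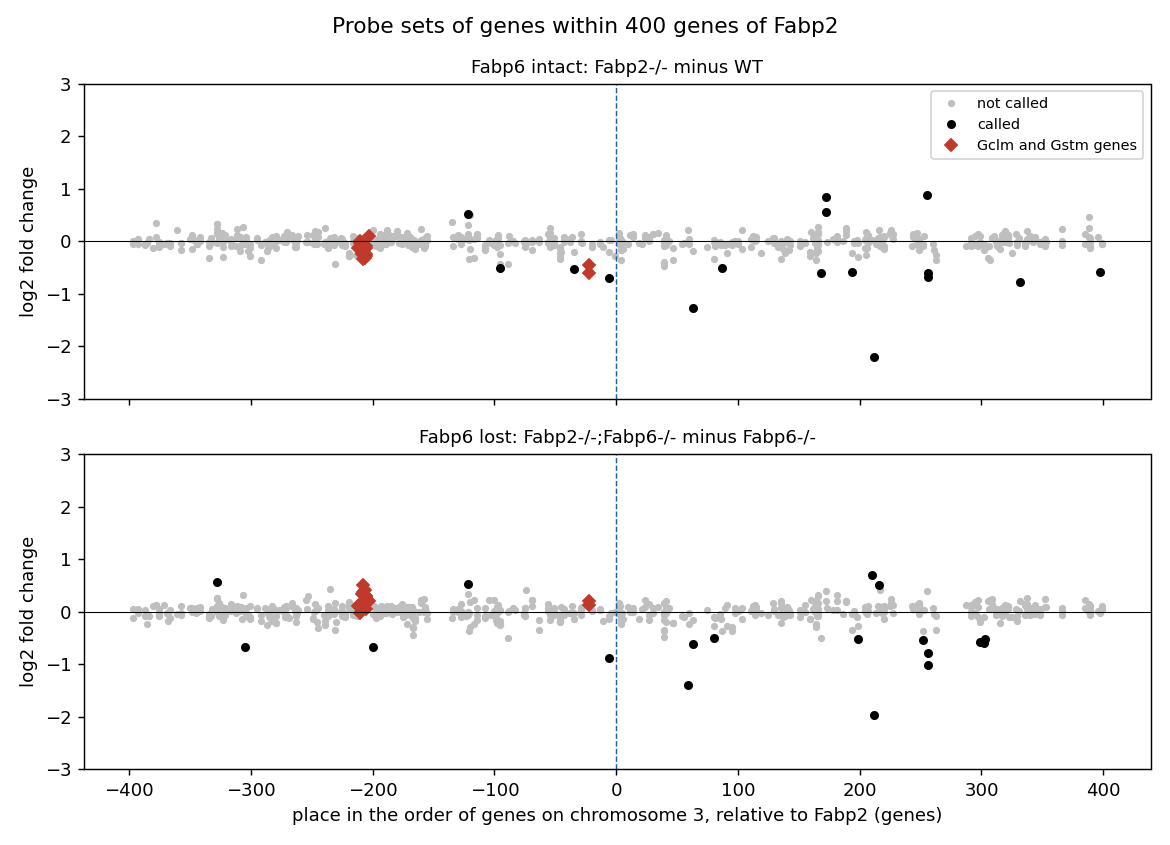
Log2 fold change with loss of Fabp2 (vertical axes) for probe sets of genes within 400 genes of *Fabp2* in the order of genes on chromosome 3 (horizontal axis, dashed line at *Fabp2*, whose own values are not drawn), with Fabp6 intact above and Fabp6 lost below, 4 against 4 pools each. Red diamonds mark *Gclm*, 22 genes away, and the *Gstm* cluster, 203 to 212 genes away, and lie lower in the upper panel than in the lower one; black points are other called probe sets.

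Of 8 genes of the NRF2 system 1 was called in any comparison with WT, *Nfe2l2*, which encodes NRF2 itself, higher in double-null males by 0.59 on 1 probe set (SE 0.19, adjusted p = 0.18). Of 19 measured NRF2 target genes outside the members 2 were called for the difference between the effects of Fabp2 loss, *Akr1c13* (0.83) and the epoxide hydrolase *Ephx1* (0.55). *Me1*, malic enzyme, rose in each comparison of Fabp2-null mice with WT, by 0.80 and 0.70 in Fabp2-/- males and females and by 0.85 and 0.62 in double-null males and females. *Ephx1* and the carbonyl reductase *Cbr3* rose in double-null males, by 0.75 and 0.71, and *Cbr3* also in Fabp2-/- males, by 0.64. *Akr1c13* fell by 0.58 in Fabp2-/- females. Of 23 genes of glutathione supply, export and breakdown 3 were called for the difference, cystathionine gamma-lyase *Cth* (0.52), which makes cysteine, the dipeptidase *Dpep1* (0.53) and the export pump *Abcc2* (0.58). Of 20 thioredoxin, peroxiredoxin and other antioxidant genes 1, catalase (*Cat*), was called in any genotype comparison with WT, higher in double-null males by 0.60, and of 13 other glutathione-dependent enzymes 0 were called there. The medians for the difference were 0.074 over the NRF2 targets and 0.068 over the supply list, against 0.012 over all probe sets. Of all probe sets 1.08% were called for the difference. In the comparisons with WT the share was 0.282% (Fabp6-/- females) to 1.04% (double-null males) for each. The list counts, however, are of genes, some with several probe sets, and those for WT run over several comparisons.

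Xenobiotic receptors and their target genes, a list that also holds *Abcc2*, gave the most calls of these lists for the difference. Of 22 measured genes 7 were called for the difference between the effects and all were more positive in the Fabp6-null background, with a median of 0.33 over 39 probe sets against 0.012 over all. The drug pump *Abcb1a* (1.34), the cytochrome *Cyp2b10* (1.19), the carboxylesterase *Ces2a* (0.80) and the retinal dehydrogenase *Aldh1a1* (0.71) had the largest values. In Fabp2-/- females 4 of the 22 were lower and 0 higher, with *Abcb1a* at −1.11, *Cyp2c55* at −0.87, *Cyp2b10* at −0.73 and *Ces2a* at −0.67. In Fabp2-/- males 2 were higher, *Cyp2c29* at 1.93 and *Cyp2c55* at 0.81, and 1 lower, *Abcb1a* at −0.91, and for *Cyp2c55* the sex difference itself differed from that of WT (−1.68, adjusted p = 0.032). In double-null males 5 were higher and 0 lower, including *Cyp2c29* at 2.79 and *Cyp2b10* at 0.92. In WT females 4 were higher than in WT males, *Cyp2c29* by 2.34, *Cyp2c55* by 1.02, *Ces2a* by 0.83 and *Cyp2b10* by 0.66. Among all probe sets 1.08% were called for the difference, 0.508% in Fabp2-/- females and 0.465% in Fabp2-/- males. In double-null males the share was 1.04%, and between WT sexes 0.174%. These shares count probe sets while the list counts are of genes, some with several probe sets, so they are not like for like.

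Markers of neighbouring tissue differed between some of these groups. The pancreas list (7 of 10 genes measured, mean level) stood at 10.97 to 11.56 in WT males, against 11.94 to 12.06 in WT females, 11.95 to 12.61 in Fabp2-/- males and 11.21 to 12.00 in double-null males, and its lowest pool was one of WT males, the reference for the other male genotypes. The hepatocyte list (4 of 5 genes) was 6.68 to 7.18 in double-null pools and 6.76 to 7.05 in Fabp6-/- females, against 6.32 to 6.64 in all other groups. The stomach list (6 of 7 genes) was 9.61 to 10.10 in the 8 Fabp6-null pools and 8.48 to 9.63 in the 8 Fabp6-intact pools. The list for proximal intestine (7 of 8 genes) was 8.29 to 8.48 in the Fabp2-null pools and 8.66 to 8.78 in the Fabp2-intact pools. A single gene of that list, the alcohol dehydrogenase *Adh6a*, was called with loss of Fabp2 (−2.08), and the median over its 13 probe sets was −0.042. RMA values have no zero, and the part of these tissues and regions in the members' differences was not tested.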

How the data were processed

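Labelled cDNA of the 16 RNA pools was hybridised to Affymetrix 430A and 430B arrays. The deposited values are log2 signals that the authors obtained from the scans by RMA (background correction, then quantile normalization), and they were used unchanged. The RMA version is not given in the sources used here. For each chip the RMA table and the series' own value table were equal in every cell. Probe sets with several genes (691 and 245) or none (1606 and 7656) in the platform annotation were left out.

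A linear model with a mean for each of the 8 groups was fitted to each chip in limma 3.58.1 under R 4.3.3 (residual df 8, prior df 8.93 and 9.85), with two-sided moderated tests, and p-values were adjusted over 20393 and 14674 probe sets. Of the comparisons 16 were fixed at the outset and 4 were added after the values were seen. The members and lists were chosen with earlier results of these data known. Values in each pool are given for members called in 1 of the planned comparisons of 8 with 8 pools or in 2 other planned ones, for *Gsta2* and *Gstm6* after their calls were seen, and for *Gclc*, *Gclm*, *Gpx1*, *Gpx2* and *Gpx4*; other genes named were chosen by their calls, and list genes by the size of their change. Gene order, chromosomes and promoters are from RefSeq (GRCm38.p6), in which all 55 members matched. The fit was tested on simulated data. The small number of arrays, 2 pools in each group, sets how precise a value can be.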

Additional observations from a re-analysis of the deposited data

Results flagged for a closer look

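For 14 member probe sets the effect of losing Fabp2 differed between mice with and without Fabp6, by the test of that difference itself. The limits were an adjusted p under 0.2 (limma, 16 pools) and a difference over 0.5 in size. The differences in log2 fold change, Fabp6-null minus Fabp6-intact, were 1.45 and 1.04 for the *Gclc* probe sets, 0.64 and 0.74 for those of *Gclm*, 0.95 for *Gsta2*, 1.01 for *Gsta3* and 0.87 for *Gsta4*. They were 0.74 for *Gstk1*, 0.55 and 0.57 for *Gstm1*, 0.74 for *Gstm2*, 0.85 and 0.61 for *Gstm3* and 0.59 for *Gstm6*. The comparison was added after the values were seen, and 1.08% of all probe sets were called in it.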

How the results depend on the processing

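Of 32 named fold changes 16 kept their direction and call without every single pool, and none reversed. With no limit on fold change the members called were 10 for loss of Fabp2, 17 for loss of Fabp6, 9 for sex, 4 in Fabp2-/- males, 13 in double-null males, 3 in double-null females, 12 in Fabp2-/- mice of both sexes, 28 between double-null and Fabp6-/- mice, 15 between double-null and WT mice and 26 for the difference in the effect of Fabp2 loss. At an adjusted p under 0.05 they were 1 in Fabp2-/- males, 4 in Fabp2-/- females, 0 in Fabp6-/- females and 3 between WT sexes. Taking 1 probe set a gene, by interquartile range or by mean signal, gave 0 in Fabp6-/- females and 3 between WT sexes. A trended, robust fit gave 0 in Fabp6-/- females and 1 for the double-null sex interaction, as did fitting only the compared arrays for that interaction, and cyclic loess gave 2 in double-null females.

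Leaving out each pool in turn gave 0 to 2 members for loss of Fabp6, for sex and in Fabp2-/- males, 2 to 6 in Fabp2-/- females, 0 to 4 in Fabp6-/- females, 5 to 10 in double-null males, 2 to 7 between WT sexes, 0 to 1 between Fabp2-/- sexes, 1 to 5 between Fabp6-/- sexes, and 0 to 1, 0 to 2 and 0 to 1 for the interactions of sex with Fabp2-/-, Fabp6-/- and double-null genotype. With the replicate number as a block (replicate block) every one of the 20 counts was the same, for example 14 for the difference in the effect of Fabp2 loss. The labels do not say that numbers pair pools, and same-numbered pools deviated together (r over 0.1) in 1 of 28 group pairs. A looser element, TGACNNNNC, lay in 47.8% of the members' promoters and 39.2% of all promoters. The share called near *Fabp2* in Fabp2-/- mice was 3.73% within 100 genes and 2.64% within 400.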

Other observations

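One probe set that the annotation assigns to *Gsta1*, *Gsta2* and *Gm3776* together was left out of the members. Its signal was 11.08 and 11.06 in WT males, 11.52 and 11.45 in WT females, 10.89 and 10.85 in Fabp2-/- males and 10.94 and 10.89 in Fabp2-/- females. It was 10.84 and 11.18 in Fabp6-/- males, 11.32 and 11.27 in Fabp6-/- females, 11.53 and 11.77 in double-null males and 11.61 and 11.54 in double-null females, so that the double-null pools were the 4 highest. Its difference was −0.57 in Fabp2-/- females (SE 0.11) and 0.58 in double-null males (SE 0.11), and the effects of Fabp2 loss differed by 0.84 (SE 0.11). The share of each gene in it cannot be told apart.

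Some probe sets of 1 gene did not follow each other over the 16 pools. The correlation was −0.20 for *Mgst1*, −0.19 for *Gstm7* and −0.14 for one pair of *Ggct*, against 0.95 for *Gsr* and 0.97 for the closest pair of *Gstm1*.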
